A study of Mus musculus with 12 samples.

Results

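The cytochrome P450 (Cyp), glutathione S-transferase (Gst), UDP-glucuronosyltransferase (Ugt) and sulfotransferase (Sult) genes were followed in kidneys of wild type and Pkd1-null mouse embryos. Members were chosen by gene symbol, taking symbols that start with Cyp, Gsta, Gstm, Gstp, Gstt, Gstk, Gsto, Ugt or Sult and a number, without Cyp27a1, Cyp27b1, Cyp24a1, Cyp51 and Ugt8a. The array carries 216 such probes for 140 genes. Of these, 79 probes for 56 genes were detected above the negative controls (detection p under 0.05) on at least 3 of the 12 arrays, and the other 84 genes were too dim to be followed. The brightest kept probe stood for its gene, so the 56 genes are 56 of 14882 tested features.

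Total RNA of embryonic kidneys was hybridised to Illumina Mouse WG-6 version 2 arrays, with 1 pair of kidneys per array and 3 arrays in each of 4 groups. The groups are wild type (WT, Pkd1+/+) at embryonic day 14.5 (E14.5; arrays 34, 57 and 58), Pkd1-/- mutants at E14.5 (arrays 35, 59 and 65), WT at E17.5 (arrays 2, 38 and 41) and Pkd1-/- mutants at E17.5 (arrays 12, 40 and 42). All embryos were of the CD-1 strain and carried no other labelled allele or treatment. The null allele is present in every cell of the mutant embryo, mutants and WT were littermates, and no label ties an array of 1 group to an array of another. Mutant kidneys of this model have no cysts at the earlier age and are cystic at the later one. The age and genotype of the embryos were compared in 5 contrasts: mutant against WT at each age, the later against the earlier age in WT and in mutants, and the change of the genotype difference with age.

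Cytochrome P450 enzymes insert oxygen into drugs, fatty acids and steroids, and the glutathione, glucuronosyl and sulfo transferases then couple such products to a water-soluble group so that they can leave the body. In the kidney much of this machinery is known from the proximal tubule, whose cells also take up organic ions from blood and secrete them into urine. The family names do not all stand for detoxification: Cyp11a1 and Cyp11b2 make steroid hormones, Cyp26a1 and Cyp26b1 break down retinoic acid, Cyp7b1 and Cyp39a1 hydroxylate oxysterols, Cyp20a1 has no settled substrate, and Cyp4b1-ps2 is a pseudogene.

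Each array detected 19397 to 20290 of 45281 probes. Kidney identity was read from marker genes: 6 of 6 nephron progenitor markers were detected on all 12 arrays, and 10 of 12 proximal tubule markers were tested, with 5 to 8 detected on each E14.5 array and 8 to 10 on each E17.5 array. Of 10 adrenal markers 2 were tested: Mc2r was detected on all 6 E14.5 arrays and on no E17.5 array, and Pnmt on all 12, while the steroid synthesis genes Star and Hsd3b1 were among the 8 not tested. WT array 2 at E17.5 stood apart: its 9 tested liver markers averaged 11.79 on the log2 scale, against 7.26 and 8.14 on the other WT arrays and 6.62 to 6.95 on the mutant arrays of that age. The liver markers Alb, Apoa2, Apoh, Fgb, Hpx and Vtn were not tested. Array 2 also detected 10 of the family probes that were not kept, against 0 to 4 on every other array, so the counts of the 56 genes called with age and at E17.5, and each of their calls that its removal changes, are given with and without it. Leaving it out moved the fold of none of the 56 genes by over 1.5 times in any of the 5 contrasts (0 of 56 in each, at most 1.34 times). WT array 34 at E14.5 had the highest proximal tubule marker mean of its age, 8.33 against 7.11 to 7.68. In RNA from whole kidneys, fewer cells of a type and less RNA per cell cannot be told apart.

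Between E14.5 and E17.5 most of the detoxification genes became brighter in both genotypes. In WT kidneys 32 of the 56 genes rose and 3 fell (limma, adjusted p under 0.05), against 20.2% of all tested features that rose and 23.5% that fell. In mutants 31 rose and 4 fell, against 21.7% and 21.3% of all features. The median log2 change was 0.77 in WT and 0.67 in mutants, where all features had medians of -0.05 and -0.02. A rise of at least 2-fold was found for 23 genes in WT (6.49% of all features) and for 18 in mutants (6.09%). Without WT array 2 at E17.5 the counts were 32 higher and 3 lower in WT and 30 higher and 4 lower in mutants.

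The filter on detection bears on these counts, because a gene that is silent at E14.5 entered only through E17.5. Of the 56 genes, 15 were detected on fewer than 3 arrays at E14.5 and were kept through E17.5, and 5 of them (Cyp2e1, Cyp2j11, Cyp4a12b, Ugt1a5 and Ugt3a2) were detected on no E14.5 array. Conversely Cyp26a1 and Sult4a1 were detected on no E17.5 array. The 2-fold counts include genes kept only through E17.5, such as Gsta2 and Sult1c2. They were not taken again among genes detected on all 12 arrays, so nothing is read from their shares. Among the 28 genes detected on all 12 arrays, 15 rose in WT and 14 in mutants and 2 fell in each. Of all features detected on all 12 arrays, 19.5% and 21.3% rose. The share of those features that fell was not counted.

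**Figure D1:**
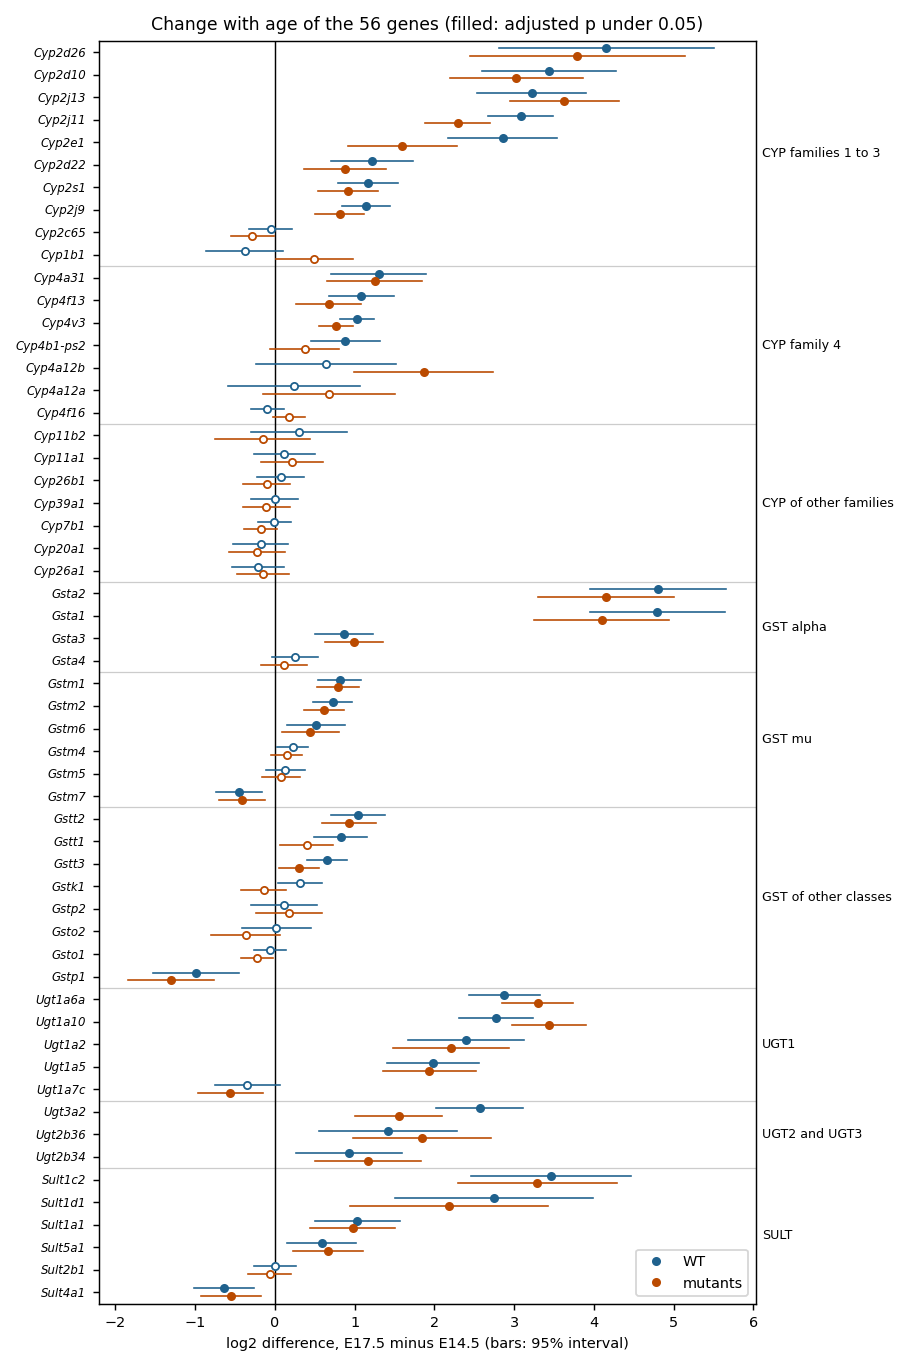
Log2 difference between E17.5 and E14.5 (x axis) for each of the 56 genes (y axis, grouped by enzyme class), with WT in blue and mutants in orange, 95% intervals as bars and filled points for adjusted p under 0.05. Gsta1, Gsta2, Cyp2d26 and Sult1c2 lie furthest to the right in WT, the 7 cytochromes of other families have open points in both genotypes, and Gstp1 lies furthest to the left.

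The steepest rises belonged to Gsta1 and Gsta2, alpha class transferases that couple glutathione to electrophiles. Gsta1 read 7.09, 5.29 and 5.61 on the log2 scale on WT arrays 34, 57 and 58 at E14.5, and 11.13, 10.95 and 10.31 on WT arrays 2, 38 and 41 at E17.5. In mutants it read 5.45, 5.78 and 5.90 on arrays 35, 59 and 65, and 9.51, 9.99 and 9.91 on arrays 12, 40 and 42. The ages did not overlap in either genotype, and array 34 was the brightest at E14.5. Array 34 was also the only WT array of that age to detect Gsta2, Cyp2d10, Cyp2j13, Cyp4a31, Sult1c2, Ugt1a2, Ugt1a6a and Ugt2b34, so that their WT changes are measured against values partly not above background. The log2 change was 4.80 ± 0.38 (SE) in WT, which is 27.8-fold (limma, adjusted p = 5.9e-06), and 4.10 ± 0.38 or 17.1-fold in mutants (adjusted p = 1.85e-05). Gsta2 was nearly the same in size, with changes of 4.80 ± 0.39 in WT (adjusted p = 6.2e-06) and 4.15 ± 0.39 in mutants (adjusted p = 1.85e-05). Because Gsta2 was detected on none of the mutant arrays at E14.5, its rise in mutants is stated as at least 13.5-fold, measured against the lowest signal told apart from background. A further, dimmer kept probe of Gsta1 was detected on no E14.5 array and on 4 E17.5 arrays. It rose by 1.48 in WT (limma, adjusted p = 0.00767 over all kept probes) and by 0.80 in mutants, where it was not called (adjusted p = 0.105). The sizes given for Gsta1 are thus those of its brightest probe.

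Gsta1 and Gsta2 lie close together on chromosome 9, and their promoters are shown because the 2 genes moved together and are close copies. The RefSeq windows (GRCm38.p6, 250 bases before to 50 after the annotated start, written 5′ to 3′ in the direction of the gene) are chr9:78230419-78230718 on the plus strand for Gsta1 and chr9:78347096-78347395 on the minus strand for Gsta2. Capitals mark GCGTG, the core that the aryl hydrocarbon receptor binds.
Gsta1: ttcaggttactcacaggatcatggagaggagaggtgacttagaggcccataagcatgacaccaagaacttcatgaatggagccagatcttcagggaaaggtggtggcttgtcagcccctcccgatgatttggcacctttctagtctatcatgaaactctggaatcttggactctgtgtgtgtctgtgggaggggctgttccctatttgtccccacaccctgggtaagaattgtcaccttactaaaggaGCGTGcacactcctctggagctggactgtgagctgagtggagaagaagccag
Gsta2: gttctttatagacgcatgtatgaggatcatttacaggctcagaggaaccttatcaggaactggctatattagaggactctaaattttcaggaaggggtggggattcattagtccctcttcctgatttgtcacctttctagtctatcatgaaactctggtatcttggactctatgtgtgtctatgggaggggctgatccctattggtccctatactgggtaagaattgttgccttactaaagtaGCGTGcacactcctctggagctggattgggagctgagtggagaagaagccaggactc
The windows were identical at 232 of 289 aligned bases, or 80.3%, and each holds GCGTG once. Since the sequences of the probes were not used here, how far each probe reads the other copy is not known, and the separate values of Gsta1 and Gsta2 are uncertain to that extent.

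Of the 56 genes, 44 had a RefSeq promoter, in 54 windows. GCGTG on either strand was found in 17 of the 54 windows, of 14 genes, and in 32.4% of all 32851 promoters of the same length. TGACNNNGC, the core of the antioxidant response element, was found in 4 of the 54 windows, of 4 genes (Cyp2c65, Gsta3, Gstm5 and Gstm7), and in 12.4% of all promoters. GTTAAT, a half-site of the hepatocyte nuclear factor HNF1, was found in 6 of the 54 windows, of 6 genes (Cyp2d26, Gsta3, Sult1a1, Sult1d1, Ugt1a10 and Ugt1a6a), and in 7.1% of all promoters.

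The other alpha class genes moved less. Gsta3 rose by 0.87 ± 0.17 in WT and 1.00 ± 0.17 in mutants (adjusted p = 0.00149 and 0.000649), while the changes of Gsta4, an enzyme for lipid peroxidation products, were 0.25 and 0.12 and did not pass the test (without WT array 2, Gsta4 was called in WT at 0.38, adjusted p = 0.0306). A dimmer kept probe of Gsta3, detected on no E14.5 array, was called in mutants and not in WT (limma, adjusted p = 0.0269 and 0.542 over all kept probes).

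Among the cytochromes of families 1 to 3, which handle drugs and arachidonic acid, 8 of 10 rose in each genotype and none fell, where 20.2% of all features rose in WT and 21.7% in mutants. Of the 8, Cyp2d10, Cyp2e1, Cyp2j11 and Cyp2j13 were kept only through E17.5 arrays. Cyp2d26, of the mouse 2d cluster on chromosome 15, read 8.45, 5.10 and 6.26 on the E14.5 WT arrays and 11.03, 10.62 and 10.64 on the E17.5 WT arrays, and 6.92, 6.20 and 6.84 against 10.24, 10.27 and 10.82 in mutants. WT array 34 stood 2 log2 units or more above its group, yet below every E17.5 array. The change was 4.16 ± 0.62 in WT (adjusted p = 0.000302), or 5.08 without array 34, and 3.79 ± 0.62 in mutants (adjusted p = 0.000554). The 2 other kept probes of Cyp2d26, each detected on 1 E14.5 array, were also called and rose less. They rose by 2.31 and 2.40 in WT and by 1.70 and 1.65 in mutants. Its neighbour Cyp2d10 rose by 3.44 ± 0.38 in WT, and in mutants, where no E14.5 array detected it, by at least 6.64-fold.

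Cyp2j11 and Cyp2j13 belong to the 2j group on chromosome 4, whose members elsewhere in the family epoxidise arachidonic acid. Cyp2j13 rose by 3.22 ± 0.31 in WT and, from no detected mutant array at E14.5, by at least 8.44-fold in mutants (adjusted p = 1.92e-05 and 1.3e-05). By its brightest probe, Cyp2j11 was detected on none of the E14.5 arrays and on all of the E17.5 arrays. That is a rise of at least 5.86-fold in WT and at least 2.81-fold in mutants (limma, adjusted p = 8.92e-07 and 9.21e-06). Cyp2e1, the ethanol-oxidising cytochrome, was likewise detected only at E17.5 and rose at least 3.85-fold in WT and 1.64-fold in mutants. Cyp2d22, Cyp2j9 and Cyp2s1 rose by 1.14 to 1.22 in WT and by 0.81 to 0.92 in mutants. A second kept probe of Cyp2d22, detected on 3 of 12 arrays, was not called, at -0.04 in WT and 0.02 in mutants. Cyp1b1 and Cyp2c65 did not pass the test in either genotype.

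In cytochrome family 4, which hydroxylates fatty acids, Cyp4a31, Cyp4f13 and Cyp4v3 rose in both genotypes. Cyp4b1-ps2 was called in WT alone and Cyp4a12b in mutants alone, where it rose at least 2.66-fold from no detected array. Cyp4v3 was the tightest of these, at 6.11, 6.18 and 5.93 on the WT arrays at E14.5 against 7.16, 7.08 and 7.06 at E17.5 (1.03 ± 0.10, adjusted p = 1.68e-05), with 0.77 ± 0.10 in mutants. Cyp4a12a and Cyp4f16 did not pass. A dimmer kept probe of Cyp4f16, detected on 4 E14.5 arrays and no E17.5 array, was called lower in both genotypes (limma, adjusted p = 0.011 and 0.047 over all kept probes). By the brightest probe, none of the 7 cytochromes of other families was called with age, and their changes ran from -0.21 to 0.30 in WT and from -0.22 to 0.22 in mutants. Of these Cyp7b1 was bright throughout, at 9.76 to 10.16 on the 12 arrays, whereas Cyp11a1 and Cyp11b2 were each detected on 6 of 12 arrays. A second kept probe of Cyp20a1, detected on 11 of 12 arrays, fell by 0.71 in mutants (adjusted p = 0.027 over all kept probes) and by 0.47 in WT (adjusted p = 0.119).

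**Figure D2:**
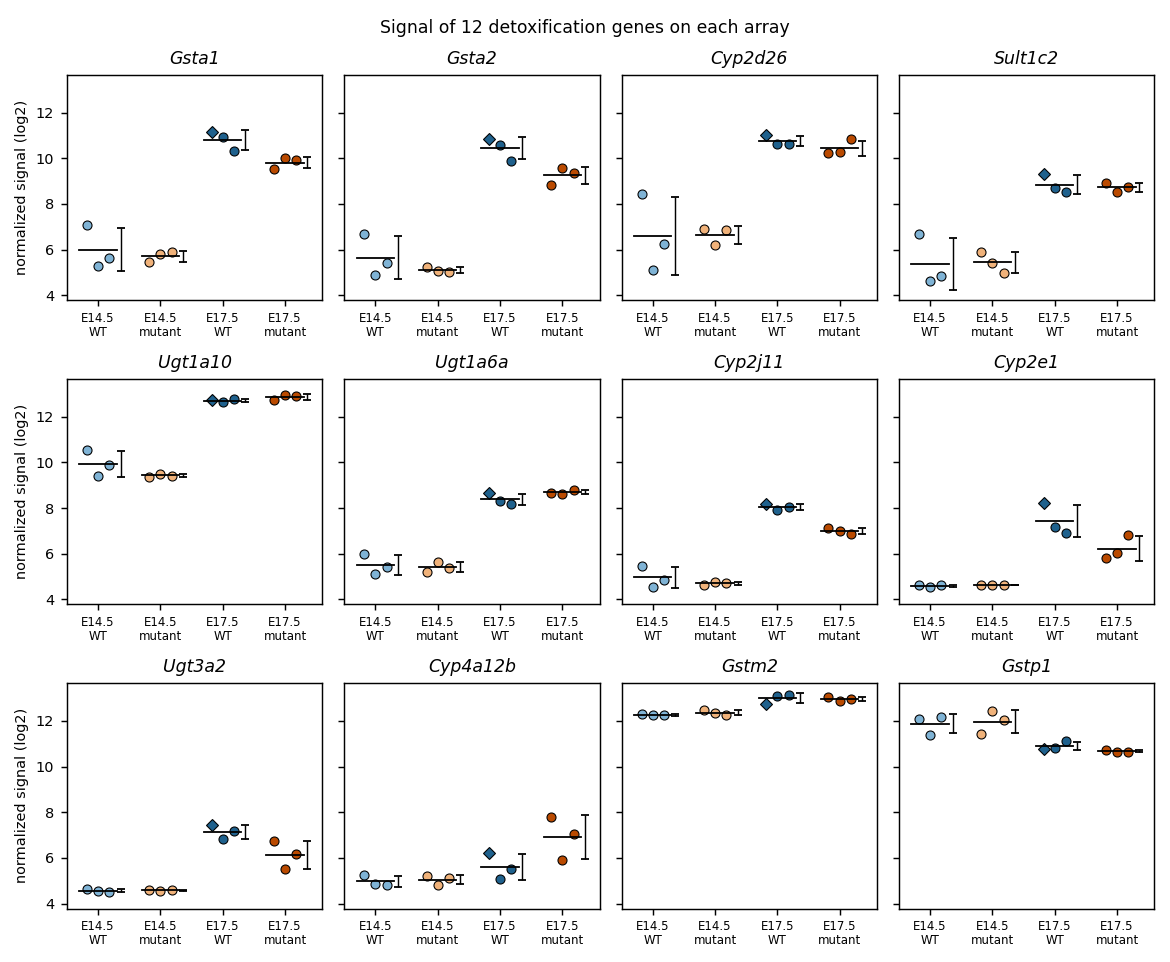
Normalized log2 signal (y axis) of 12 genes on each array, 1 point per array in 4 groups (x axis), with the group mean as a line, the SD of 3 arrays as a bar beside it and WT array 2 at E17.5 as a diamond. Gsta1, Gsta2, Cyp2d26, Sult1c2, Ugt1a10 and Ugt1a6a are higher on every E17.5 array than on any E14.5 array, Gstp1 is lower, and the 3 mutant arrays of Cyp2j11 at E17.5 (6.86 to 7.13) lie below the 3 WT arrays (7.93 to 8.17).

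Glucuronosyltransferases rose in 7 of 8 cases in both genotypes, where 20.2% of all features rose in WT and 21.7% in mutants. Of the 7, Ugt1a2, Ugt1a5, Ugt1a6a, Ugt2b34 and Ugt3a2 were kept only through E17.5 arrays. Ugt1a10 read 10.53, 9.40 and 9.89 on the E14.5 WT arrays and 12.72, 12.65 and 12.76 on the E17.5 WT arrays, and 9.38, 9.48 and 9.42 against 12.73, 12.93 and 12.93 in mutants. Its change was 2.77 ± 0.21 in WT (adjusted p = 4.58e-06) and 3.44 ± 0.21 in mutants (adjusted p = 1.76e-06). Ugt1a6a, known for small planar phenols, rose by 2.88 ± 0.20 and 3.29 ± 0.20 (adjusted p = 3.05e-06 and 1.76e-06). Ugt1a2 rose by 2.40 in WT and at least 3.43-fold in mutants, where no E14.5 array detected it. Ugt1a5 was detected on no E14.5 array and rose at least 2.85-fold in WT and 2.45-fold in mutants.

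Mouse Ugt1a genes are alternative starts joined to shared last exons, and in the RefSeq annotation all 5 Ugt1a genes measured here end at the same base. A probe in the shared exons reads all of them, and where each probe lies was not known, so the assignment of a change to 1 of the 5 is uncertain. The 6 kept probes of Ugt1a10 differed: the 3 brightest rose by 2.77, 2.71 and 2.47 in WT, a further probe by 1.14, and the 2 others by 0.58 and 0.71 without passing the test (adjusted p = 0.165 and 0.149 over all kept probes). The promoter of Ugt1a10, chr1:88055161-88055460 on the plus strand of GRCm38.p6, is shown because this gene had the largest rise of the group in mutants (in WT that was Ugt1a6a), with GTTAAT on either strand in capitals.
Ugt1a10: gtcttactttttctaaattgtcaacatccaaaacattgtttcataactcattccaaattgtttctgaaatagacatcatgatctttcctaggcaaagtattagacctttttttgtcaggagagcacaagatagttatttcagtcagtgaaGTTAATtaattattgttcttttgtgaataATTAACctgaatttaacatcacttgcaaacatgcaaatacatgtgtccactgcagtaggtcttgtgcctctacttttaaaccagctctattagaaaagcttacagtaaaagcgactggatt
The half-site occurs at positions -100 and -71 from the start, once on each strand.

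Ugt1a7c moved the other way. It read 6.39, 5.92 and 6.65 in WT and 5.90, 6.41 and 5.84 in the E14.5 mutants. The E17.5 arrays gave 5.94, 5.89 and 6.10 for WT and 5.54, 5.56 and 5.37 for mutants. The ages overlapped in WT (-0.34 ± 0.19, adjusted p = 0.156) and not in mutants (-0.56 ± 0.19, adjusted p = 0.0302). Leaving out mutant array 59, 12, 40 or 42 ended that call, with changes of -0.38, -0.59, -0.59 and -0.49 (adjusted p = 0.122, 0.0546, 0.0547 and 0.0912). Outside this locus, Ugt3a2 was detected on no E14.5 array and on all 6 E17.5 arrays, at least 3.11-fold higher in WT and 1.55-fold in mutants, and Ugt2b36 and Ugt2b34 rose by 1.42 and 0.93 in WT (adjusted p = 0.0128 and 0.0271). In mutants Ugt2b36 rose by 1.84, and Ugt2b34, which no mutant array detected at E14.5, by at least 1.44-fold. Without WT array 2, Ugt2b34 was no longer called in WT (0.59, adjusted p = 0.0977).

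Of 6 sulfotransferases, 4 rose and 1 fell in each genotype, where 20.2% of all features rose and 23.5% fell in WT, and 21.7% and 21.3% in mutants. Among the 4, Sult1c2 was kept only through E17.5 arrays. Sult1c2 read 6.69, 4.61 and 4.82 on the E14.5 WT arrays and 9.31, 8.70 and 8.50 on the E17.5 WT arrays, and 5.91, 5.42 and 4.96 against 8.90, 8.54 and 8.73 in mutants. All E17.5 arrays lay above all E14.5 arrays, with changes of 3.46 ± 0.46 in WT and 3.29 ± 0.46 in mutants (adjusted p = 0.00014 and 0.000201). At E14.5 it was detected on 1 array of each genotype, and without array 34 the WT change was 4.12. Sult1d1, Sult1a1 and Sult5a1 rose by 2.75, 1.03 and 0.59 in WT and by 2.18, 0.98 and 0.66 in mutants, and Sult2b1 did not pass. Without array 34 the WT change of Sult1d1 was 3.41. The call of Sult5a1 held in 8 of 12 refits with 1 array left out in WT and in 9 of 12 in mutants. Sult4a1, a family member best known from brain, fell from 5.77 ± 0.36 to 5.13 ± 0.08 (SD, n = 3) in WT, and was detected on 5 of 6 E14.5 arrays and on no E17.5 array. Its fall was 1.2-fold or more in WT and 1.15-fold or more in mutants by the bound (adjusted p = 0.011 and 0.0231), and the call in mutants ended without mutant array 35, 40 or 42, at -0.46, -0.52 and -0.45 against -0.55 with all arrays (adjusted p = 0.0819, 0.066 and 0.0857).

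The mu class and the remaining glutathione transferases changed by less than the alpha class pair. Gstm2, the brightest of the 56 probes on average, read 12.32, 12.26 and 12.25 on the E14.5 WT arrays and 12.74, 13.11 and 13.14 on the E17.5 WT arrays, with changes of 0.72 ± 0.11 in WT and 0.61 ± 0.11 in mutants (adjusted p = 0.000444 and 0.00129). Gstm1 and Gstm6 also rose in both genotypes. The call of Gstm6 held in 8 of 12 refits that leave out 1 array in WT (limma, adjusted p = 0.084 without array 2) and in 5 of 12 in mutants. Gstm4 and Gstm5 did not pass, Gstm5 holding 11.54 to 11.92 over the 12 arrays. Without WT array 2, Gstm4 was called higher with age in WT. A dimmer kept probe of Gstm6, detected on no E14.5 array and on 6 E17.5 arrays, was called higher in both genotypes (limma, adjusted p = 0.00106 in WT and 0.000927 in mutants over all kept probes). A dimmer kept probe of Gstm1, detected on all 12 arrays, was not called, at 0.03 in WT and -0.14 in mutants (limma, adjusted p = 0.904 and 0.458 over all kept probes). Gstm7 fell by 0.45 in WT and by 0.41 in mutants (adjusted p = 0.0156 and 0.0235). The Gstm7 call ended in WT without array 58 or 41, at -0.41 and -0.36 (adjusted p = 0.0574 and 0.0598), and in mutants without array 59, 65 or 40, at -0.37, -0.33 and -0.34 (adjusted p = 0.0797, 0.0974 and 0.0905).

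Gstp1, the pi class enzyme that is abundant in many embryonic and proliferating tissues, showed the largest fall of the 56 genes in both genotypes. It read 12.10, 11.40 and 12.16 in WT and 11.44, 12.46 and 12.03 in the E14.5 mutants. The E17.5 arrays gave 10.77, 10.80 and 11.10 for WT and 10.72, 10.65 and 10.66 for mutants. Every E17.5 array was below every E14.5 array. The change was -0.99 ± 0.25 in WT and -1.30 ± 0.25 in mutants (adjusted p = 0.00688 and 0.00146). A second kept probe of Gstp1 fell by 0.90 in WT and 0.93 in mutants, both called. The dimmest kept probe fell by 1.06 in WT, and its change of -0.51 in mutants was not called (limma, adjusted p = 0.125 over all kept probes). Gstp2, a close copy of Gstp1, did not pass in either genotype, with 5.65 to 6.39 over the 12 arrays.

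Among theta class genes Gstt2 and Gstt3 rose in both genotypes and Gstt1 in WT. Gstt3, bright on all arrays, went from 10.96 ± 0.22 to 11.62 ± 0.08 in WT (SD, n = 3, adjusted p = 0.000802) and from 11.09 ± 0.12 to 11.40 ± 0.05 in mutants (adjusted p = 0.0474), a call that held in 3 of 12 refits with 1 array left out and not without array 2 (adjusted p = 0.0551). Gstk1 and the omega class genes Gsto1 and Gsto2 were not called, Gstk1 holding 11.06 to 11.67 throughout.

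At E14.5 none of the 56 genes was called between mutants and WT (limma, adjusted p under 0.05), where 8 of 14882 features were, or 0.0538%. An unadjusted p under 0.05 was found for 1 of the 56 (3.2% of all features), Ugt1a10, at -0.51 ± 0.21 (limma, adjusted p = 1). Its difference was -0.22 without WT array 34 and -0.78 without WT array 57. The median log2 difference was 0.01, against 0.00 over all features, and the 95% interval lay within 1 log2 unit of 0 for 50 of 56 genes. The other genes with the smallest unadjusted p were Gsto1 at 0.19, Gstk1 at 0.27, Cyp2j9 at 0.26, Cyp2s1 at 0.27 and Gstm4 at -0.13. For these the 3 mutant arrays lay apart from the 3 WT arrays, while for Ugt1a10 they overlapped. Of the 56 genes, 5 lay wholly above and 1 wholly below WT at this age. The share over all features was not counted, so nothing is read from this separation.

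At E17.5, when the mutant kidneys are cystic, 1 of the 56 genes was called, Cyp2j11, which was lower in mutants. Over all features 1.39% were called lower and 1.78% higher. The median log2 difference was -0.11 against 0.02 over all features, 39 genes had a negative and 17 a positive difference, and 11 (19.6%) had an unadjusted p under 0.05, where 20.1% of all features did. The 3 mutant arrays lay wholly below the 3 WT arrays for 12 genes, where 10.4% of all features did so, and wholly above for 1 gene, where 13.8% did. The proximal tubule markers averaged 10.34 to 10.52 on the WT arrays and 9.49 to 9.61 on the mutant arrays of this age, and 1 of the 10, Miox, was called lower. That shift of the mean lay mostly in Miox (-4.21) and Slc13a3 (-1.99, adjusted p = 0.157). The median difference of the 10 markers was -0.36, with Lrp2 at 0.01, Cubn at -0.07 and Slc13a1 at 0.05. The 4 tested collecting duct markers had a median of -0.56, and none of them was called. The part of these shifts, and of the liver markers on array 2, in the differences of the detoxification genes was not tested.

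Cyp2j11 read 8.17, 7.93 and 8.05 on WT arrays 2, 38 and 41 and 7.13, 6.98 and 6.86 on mutant arrays 12, 40 and 42. The groups lay apart by more than their own spread. The log2 difference was -1.06 ± 0.18, or 2.09-fold lower (95% interval -1.47 to -0.66, adjusted p = 0.0129). Without WT array 2 the log2 difference kept 94.5% of its size with adjusted p = 0.0507, and without mutant array 40 it kept 99.6% with adjusted p = 0.0553, so that the call ended with little change in the difference. A further probe of Cyp2j11, detected on 1 E14.5 array, gave -0.85 (limma, adjusted p = 0.0764 over all kept probes). Its promoter, chr4:96348631-96348930 on the minus strand of GRCm38.p6, is shown because it is the only member called between genotypes. None of the 3 motifs searched is in this window, so no base is in capitals.
Cyp2j11: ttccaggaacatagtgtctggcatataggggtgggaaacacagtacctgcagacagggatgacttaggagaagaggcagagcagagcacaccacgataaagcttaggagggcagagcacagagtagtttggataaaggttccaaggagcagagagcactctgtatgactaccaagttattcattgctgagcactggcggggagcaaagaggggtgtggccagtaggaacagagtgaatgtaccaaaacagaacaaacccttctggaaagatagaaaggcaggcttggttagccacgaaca

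Further genes came near the threshold without passing it. Cyp2e1 read 8.23, 7.17 and 6.93 in WT and 5.79, 6.01 and 6.84 in mutants, groups that did not overlap, with a difference of -1.23 ± 0.31 (adjusted p = 0.0567) that was -0.83 without array 2. Ugt3a2 read 7.44, 6.81 and 7.16 in WT and 6.74, 5.50 and 6.15 in mutants, also without overlap, with -1.01 ± 0.25 (adjusted p = 0.0533) and -0.85 without array 2. Array 2 was the highest WT array for both genes. Cyp2e1 was called without mutant array 42 (-1.54, adjusted p = 0.0313) and Ugt3a2 without mutant array 12 (-1.31, adjusted p = 0.0109).

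Gsta2 and Gsta1 were lower on all mutant arrays than on any WT array, with differences of -1.19 ± 0.39 and -0.99 ± 0.38 (adjusted p = 0.121 and 0.183), and -0.99 and -0.82 without array 2. Without WT array 34 of E14.5 both were called (adjusted p = 0.0327 and 0.037). Cyp1b1, which oxidises oestrogens and procarcinogens, was the 1 gene wholly higher in mutants, at 10.34, 10.09 and 10.02 against 9.85, 9.89 and 8.98 in WT (0.58 ± 0.22, adjusted p = 0.177, and 0.72 without array 2). Gstt1 was very tight in WT, at 7.82, 7.80 and 7.81, against 7.62, 7.46 and 7.10 in mutants, a difference of -0.42 ± 0.15 (adjusted p = 0.159). Cyp4a12b, a fatty acid hydroxylase, was the largest difference in the other direction, at 6.22, 5.09 and 5.53 in WT and 7.78, 5.90 and 7.06 in mutants. Its groups overlapped through WT array 2 and mutant array 40, and the difference was 1.30 ± 0.40 (adjusted p = 0.103). WT array 2 was the only WT array to detect it, so no size is given without that array, where it was not called (adjusted p = 0.0999). Without mutant array 40 it was called, at 1.80 with adjusted p = 0.0223. Cyp4a12b has the close copy Cyp4a12a, which read 0.55 ± 0.38 higher in mutants (adjusted p = 0.447) and whose signal its probe may share.

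**Figure D3:**
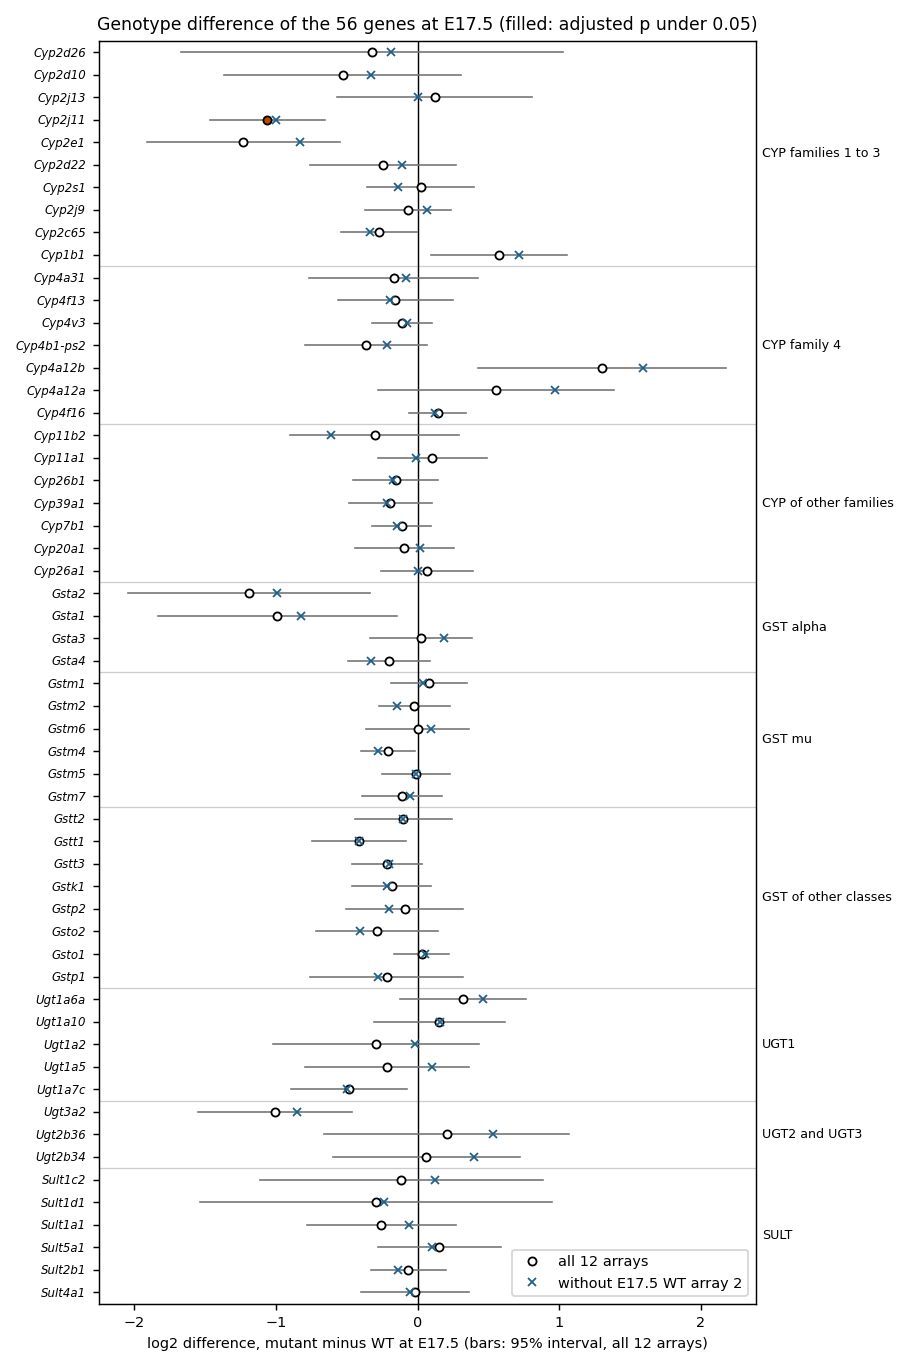
Log2 difference between mutants and WT at E17.5 (x axis) for each of the 56 genes (y axis, grouped by enzyme class), with all 12 arrays as circles and 95% intervals as bars, and without WT array 2 as crosses. Only the circle of Cyp2j11, at -1.06, is filled for adjusted p under 0.05, and the interval of Cyp4a12b lies furthest to the right.

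Without WT array 2, none of the 56 genes was called at E17.5 by limma, and 13 (23.2%) had an unadjusted p under 0.05, where 16.7% of all features did, while 192 of all features were called in place of 472. Array 2 was the highest of the 3 WT arrays for 27 of the 56 genes, against 30.2% of all features. Its largest excesses over the mean of the other WT arrays were 1.27 for Cyp4a12a, 1.18 for Cyp2e1, 1.02 for Ugt2b34, 0.97 for Ugt2b36, 0.96 for Ugt1a5 and 0.91 for Cyp4a12b. Family genes with a probe that array 2 detected although the probe was not kept include Cyp2c67, Cyp2c70, Cyp2d9, Cyp8b1 and Gstp3.

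None of the 56 genes was called for a genotype difference that differs between the ages (limma, adjusted p under 0.05), where 26 features or 0.175% passed this test. The median was -0.13 against 0.02 over all features, and 6 of the genes (10.7%) had an unadjusted p under 0.05, the share over all features being 10.7%. The smallest p belonged to Cyp2j11 (adjusted p = 0.337, and 0.0338 without WT array 34). Since no E14.5 array detected the brightest probe of Cyp2j11, its genotype difference at that age is not measured. No size is given for this contrast. Genes called with age in 1 genotype and not in the other, namely Cyp4b1-ps2 and Gstt1 in WT and Cyp4a12b and Ugt1a7c in mutants, are thus not shown to differ between genotypes. Without array 34 Gstt1 was called in mutants too (0.40, adjusted p = 0.0206).

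WT array 34 was the highest of the 6 E14.5 arrays for 19 of the 30 genes that rose in both genotypes, against 20.7% of all features. The mean of those 30 genes was 7.39 on array 34 and 6.47 to 6.85 on the other E14.5 arrays. At E17.5 it was 9.10 on array 2, 8.77 and 8.78 on the other WT arrays, and 8.55 to 8.68 on the mutant arrays. Whether the proximal tubule markers and these genes move together for 1 reason was not tested.

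**Figure D4:**
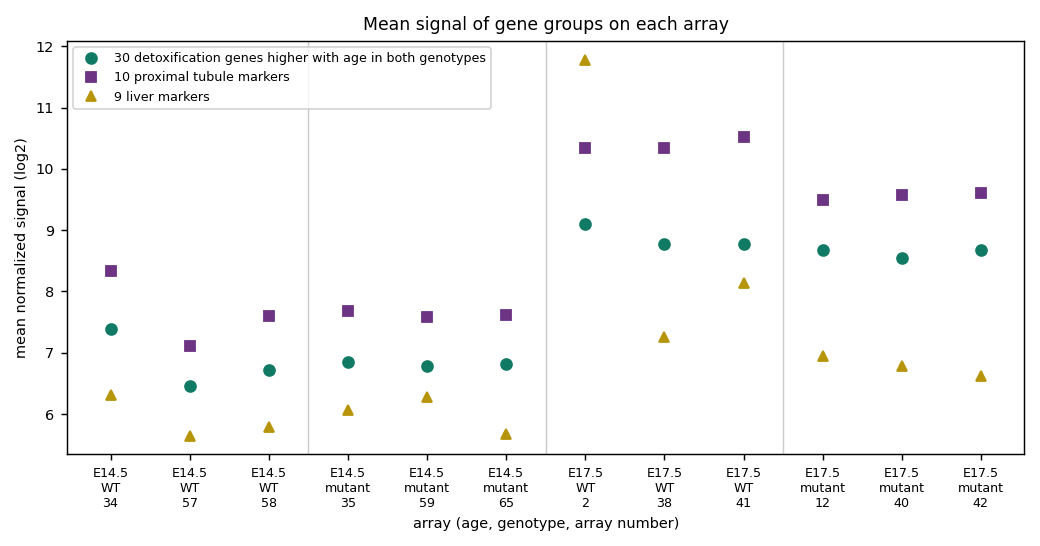
Mean normalized log2 signal (y axis) on each array (x axis) of the 30 detoxification genes that rose in both genotypes (circles), 10 proximal tubule markers (squares) and 9 liver markers (triangles). Array 34 is the highest E14.5 array for circles and squares, and array 2 carries the highest liver marker mean, 11.79.

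Genes that work beside the detoxification enzymes were taken from a list of 59, of which 43 were tested. With age 28 rose and 4 fell in WT, and 25 rose and 2 fell in mutants, against the shares over all features of 20.2% and 23.5% in WT and 21.7% and 21.3% in mutants. The largest rises were those of Slc22a6, the organic anion uptake carrier OAT1 (4.65 ± 0.47 in WT and 4.04 ± 0.47 in mutants, SE; 5.34 in WT without array 34), Slc47a1, a drug exporter (2.39 and 2.20), and Fmo1, a flavin monooxygenase (2.37 and 2.29). Ephx1, which opens the epoxides that cytochromes leave, rose by 1.82 in WT and 1.90 in mutants. Ces1d, a carboxylesterase, rose in both genotypes from no detected array at E14.5 to 3 WT and 2 mutant arrays at E17.5. Of 7 tested genes that supply cofactors, 5 rose in WT and 4 in mutants, with Gclm and Gss of glutathione synthesis and Papss2 of sulfate activation in both. Of 8 regulators, Hnf4a, Nr1i2 and Mafg rose in both genotypes. Arnt was called lower in WT (-0.56, limma adjusted p = 0.0169) and Nfe2l2, the antioxidant response factor, in mutants (-0.87, adjusted p = 0.00119). None of the 43 tested genes was called for a change of the genotype difference with age. Falls called in 1 genotype are thus not shown to differ between genotypes. At E14.5 none of the 43 was called between genotypes. At E17.5 mutants had more Aldh1a1 (0.86) and Abcc4 (0.64) and less Cbr1 (-0.53) and Slc22a8 (-0.73), with adjusted p = 0.00891, 0.0185, 0.0207 and 0.0305, against 1.78% of all features called higher and 1.39% lower. Without WT array 2 the call of Aldh1a1 held (0.88, adjusted p = 0.0277), and those of Abcc4, Cbr1 and Slc22a8 did not, at 0.65, -0.47 and -0.58 (adjusted p = 0.0546, 0.0725 and 0.09).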

How the data were processed

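Total RNA of 12 samples (3 per group) was hybridised to Illumina Mouse WG-6 version 2 arrays. The authors deposited bead summary intensity values that were background-subtracted but not normalized between arrays, with a detection p-value for each probe, both deposited per array. Values at or below 0 made up 31.3 to 34% of each array. The authors also deposited a table of intensity values on the linear scale, background-subtracted and quantile normalized, with values at or below 0 left empty, used here as an alternative. No column of the authors' own comparisons was used.

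Intensities were corrected by the normal-exponential model with detection p-values (neqc, offset 16) and quantile normalized with limma 3.58.1 in R 4.3.3. Of 45281 probes, 21526 had a detection p under 0.05 on at least 3 arrays. The brightest kept probe stood for its symbol, 34885 probes having 1 symbol, 18 several and 10378 none, the last tested under their own identifiers. One linear model over the 4 groups (lmFit, eBayes) gave the 5 contrasts for 14882 features, with Benjamini-Hochberg adjustment over all of them. Errors are moderated SEs, and intervals are 95%. P-values measure the spread between arrays of 1 kidney pair each, and the number of arrays limits the precision. Where a group detected a gene on none of its arrays, the fold was taken against the higher of the lowest detected signal of the array and the probe's own, and is a lower bound.

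Named were members called between genotypes, the 8 largest called rises and falls per age contrast, the 6 brightest on average, the 6 smallest p per genotype contrast, and those whose genotype call depended on WT array 2. Partner genes are named where called between genotypes or among the 4 largest changes with age. Other genes are named to account for each class, and were chosen after their values were seen. The members and lists were chosen with earlier results of these data known. The models were tested on simulated data. Promoters came from RefSeq (GRCm38.p6), and motifs were searched on both strands.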

Additional observations from a re-analysis of the deposited data

How the results depend on the processing

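Over 887 values of named genes under other settings, 2 of them chosen after seeing the data, 0 turned direction, 31 lost and 16 gained a call. The count of 0 says little. Several settings change the test and keep the log2 difference, and leaving out an array outside a contrast hardly moves it. Most of these genes were also named for their large changes or small p in the reported fit. At E17.5 the count of genes called between genotypes, 1 in the reported fit, was 0 without background correction, 0 with the authors' table (empty cells at the lowest value, or with 16 added, the latter chosen after seeing the data), 0 with features detected on all 12 arrays (Cyp2j11 is then not tested), 3 with an offset of 50, 3 with a trended robust variance, 7 with array weights and 5 with the study's thresholds. Over all 14882 features, 624 were called with the offset of 50, 602 with the trended robust variance, 2081 with array weights and 143 with the study's thresholds, against 472 in the reported fit. Between genotypes those thresholds ask for a 2-fold change and an unadjusted p of at most 0.05. Of the 5 genes that met them, only Cyp2j11 had an adjusted p under 0.05. Leaving out 1 array gave 0 to 3 of the 56 genes: 0 without WT array 2, 2 without mutant array 12 or 42, 3 without WT array 34 of E14.5, and 1, Cyp4a12b in place of Cyp2j11, without mutant array 40. With WT arrays 2 and 34 both left out (chosen after seeing the data) it was 1, Cyp2j11, and the fall of Gstp1 in WT was not called (-0.83, limma adjusted p = 0.0603). For the change of the genotype difference between ages the count was 0 in the reported fit and 1 with array weights. It was 0 to 1 when leaving out 1 array. Each time the gene was Cyp2j11, whose brightest probe no E14.5 array detected. Between genotypes at E14.5 the count was 0 throughout. For age, 35 in WT and 35 in mutants became 17 and 17 of the 28 genes detected on all 12 arrays. They became 23 and 19 with the study's thresholds, which ask for a 2-fold change. Of all 12057 features detected on all 12 arrays, 5579 in WT and 5520 in mutants were called. With the study's thresholds it was 1320 and 1299 of 14882. Leaving out 1 array gave 31 to 36 of the 56 genes in WT and 30 to 36 in mutants. Of 15 genes with 2 or more kept probes, some but not all probes were called with age in 5 in WT and in 7 in mutants. No gene had probes called in opposite directions.

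No paired analysis was possible because the array numbers of the labels are not shared between groups. Genes near background depend on how low signals are treated: with the authors' table and empty cells at the lowest value, the rise of Cyp2j13 in mutants was 9.77 in place of 3.63 and no longer called. Genes detected on none of a group's arrays have only a bound, and the 84 family genes that were not kept were not measured.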
